A study of Caenorhabditis elegans with 79 samples.

Results

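Small RNAs that fell on annotated transposons were examined in Caenorhabditis elegans with and without hrde-1 or morc-1. The members were every row of the small RNA table whose identifier begins with WBTransposon, 191 of 2434 rows. Rows with identical values in all libraries were joined, which left 178 transposon features among 2382 features in all. All 178 passed the filter on low values (a mean of at least 10 over the 16 libraries), and the lowest of them had a mean of 12.05. The other 2119 tested features, called gene features or genes here, served as the background of the tests. Of these 2119, 173 are listed under a sequence name without a gene identifier. Medians of gene features within a library, and ratios to them, used all 2204 gene features, also those below the filter. As described below, 123 of the 2119 followed a transposon feature closely in every library, so the background is not free of transposon-like profiles. Neither the table nor the reference tables pair a transposon identifier with an element family, a position or a sequence, so the features are described by identifier only.

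The tested strains were hrde-1(tm1200) and morc-1(tm6048), set against the wild type N2 (WT). All animals had been kept at 20 °C, were then grown at 25 °C on OP50 bacteria, and were collected whole as adults. Early libraries came from generation 1 and late libraries from generation 4, except that WT late replicate 3 and 1 morc-1 late library came from generation 5. There were 2 hrde-1, 3 morc-1 and 3 WT libraries at each stage. Each mutant was a single allele, the labels do not say that replicates were separate cultures, and the p-values therefore measure only the spread between these libraries, which may be technical. By correlation, the 2 hrde-1 libraries of a stage were closer to each other than any pair within a WT or morc-1 group. Over transposon features their log2 values correlated at 0.998 early and late, against 0.931 to 0.990 within the WT and morc-1 groups. The values of 0.931 and 0.949 both involve morc-1 early replicate 1, the library of fewest reads. The hrde-1 libraries carry later library numbers than all WT and morc-1 libraries, and whether they were prepared apart is not stated, so strain and preparation cannot be told apart for hrde-1.

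In worms, RNA-dependent RNA polymerases copy targeted transcripts into short antisense RNAs that carry a 5′ triphosphate. These secondary small RNAs are loaded onto Argonautes and repress transposons and other foreign sequences in the germline. HRDE-1 is the nuclear Argonaute that carries such small RNAs to nascent transcripts and is needed for the inheritance of silencing. MORC-1 is a GHKL ATPase that acts at chromatin in the same nuclear pathway. The libraries were made with a polyphosphatase step, which admits small RNAs with a 5′ triphosphate. Whole animals were used, so in these bulk samples fewer germ cells and less small RNA per cell cannot be told apart.

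Recovered reads ran from 54599 to 2274591 per library. The smallest library was morc-1 early replicate 1, in which 1 read is worth 21.7 normalized counts and 6 transposon features had no read. Every other library had no transposon feature at 0. Values are the authors' normalized read counts (reads divided by a size factor for each library), not corrected for feature length, so levels of different features are not compared as molecule numbers. Intervals and spreads cover these libraries only. A feature was called when limma's Benjamini-Hochberg adjusted p, over all 2297 features, was under 0.05.

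The median transposon feature stood higher relative to the median gene feature in both mutants than in WT. In each library the median log2 level of gene features was subtracted from that of transposon features, which removes any scaling of whole libraries. This difference was 1.94 and 1.97 in the hrde-1 late libraries, -0.02, 0.51 and 0.07 in the morc-1 late libraries and -0.91, -0.54 and -0.63 in the WT late libraries. Among early libraries it was 0.89 and 0.80 in hrde-1, 0.00, 0.01 and -0.12 in morc-1 and -0.53, -0.78 and -0.24 in WT. The 3 strains did not overlap at either stage, and hrde-1 late stood apart from all other libraries. The groups of 2 and 3 libraries allow no exact permutation p under 0.05, and these single values per library carry no test. In both mutants the transposon median lay near the median member of a block of 53 features with near-identical profiles, described below. In hrde-1 late it was 206 and 200 normalized counts, against 208 and 201 for that member. With each distinct profile counted once, transposon and gene changes against WT differed less. This difference in medians was 0.81 instead of 1.23 in hrde-1 late and 0.49 instead of 1.08 in morc-1 late. Early it was 0.62 instead of 0.68 and 0.19 instead of 0.51.

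**Figure D1:**
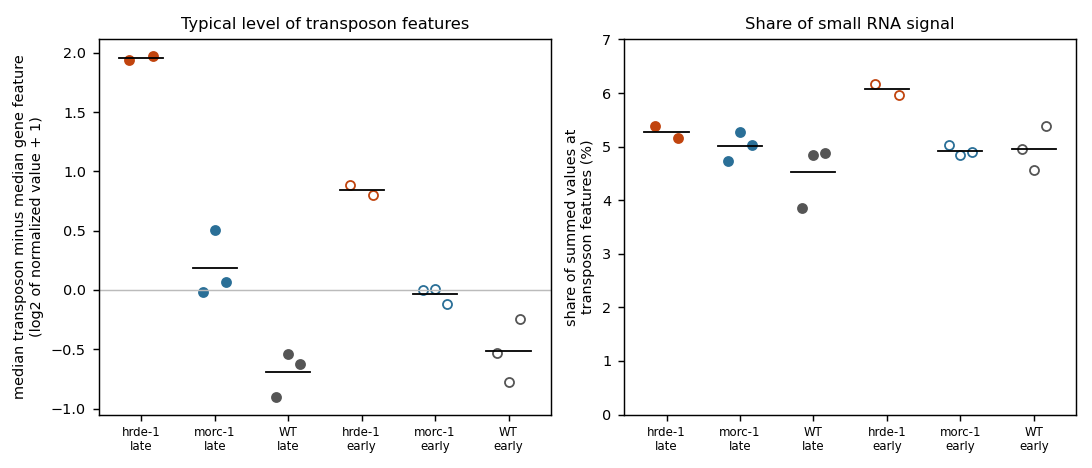
Each point is 1 library, lines are group means, filled points are late and open points early. The left panel shows the median transposon feature minus the median gene feature (log2), highest in hrde-1 late at 1.94 and 1.97, and the right panel the share of summed normalized counts at transposon features, between 3.85 and 6.18%. In the mutants the median transposon feature lies near the block of 53 features described in the text.

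The share of all small RNA signal that lay at transposons moved much less than the median feature. It was 5.27 ± 0.155% in hrde-1 late, 5.01 ± 0.269% in morc-1 late and 4.52 ± 0.580% in WT late (SD, n = 2, 3 and 3). Early it was 6.07 ± 0.155% in hrde-1, 4.92 ± 0.0941% in morc-1 and 4.96 ± 0.415% in WT. The late ranges of hrde-1 and WT were 5.16 to 5.38% and 3.85 to 4.87%, without overlap. A few features weigh heavily in this sum. The 5 with the highest mean made up 29.3% of it in hrde-1 late, 32.5% in morc-1 late and 39.6% in WT late.

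WBTransposon00000216 had the highest mean of the transposon features (9547 normalized counts) and ranked 12th in the whole table. It had 11501 and 10209 normalized counts in hrde-1 late, 6695, 9471 and 7280 in morc-1 late and 8223, 10584 and 8239 in WT late. Against WT late its log2 change was 0.28 ± 0.18 (SE) in hrde-1 (limma adjusted p = 0.173) and -0.21 ± 0.16 in morc-1 (limma adjusted p = 0.289), so neither was called, and the signs turned with the scaling (-0.40 in hrde-1 with quantile normalization, 0.08 in morc-1 with DESeq2). Between the mutants it was higher in hrde-1 late than in morc-1 late by 0.49 ± 0.18 (limma adjusted p = 0.0299), a call lost without either hrde-1 late replicate, morc-1 late replicate 1 or library b of the morc-1 late libraries that share a header (0.38 to 0.57), and with quantile normalization (0.31). The profiles over the 16 libraries most like it were those of Y102A5D.1 (r = 0.89), T26G10.4 (r = 0.85) and K02B7.1 (r = 0.83), which share its libraries and size factors. Of these only T26G10.4 has a gene identifier.

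The next in level was WBTransposon00000275, whose row is identical to that of T05C3.3, a sequence name listed without a gene identifier. It had 1872 and 1827 normalized counts in hrde-1 late and 1738 and 1583 in hrde-1 early. In WT it had 5754, 7990 and 5529 late and 8268, 7289 and 6352 early, so every hrde-1 library lay below every WT library. Its log2 change was -1.78 ± 0.18 (SE) late (limma adjusted p = 1.52e-06) and -2.13 ± 0.18 early (limma adjusted p = 4.58e-07). In morc-1 late it had 6271, 8560 and 7101 normalized counts, which overlapped WT late, and the sign of that small difference turned with the scaling.

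WBTransposon00000046, WBTransposon00000113 and WBTransposon00000094 completed the 5 highest. WBTransposon00000046 had 3484 and 3266 normalized counts in hrde-1 early, above 2137, 1981 and 1928 in WT early (log2 0.74 ± 0.13, limma adjusted p = 0.000334). Late, its 2146 and 1946 in hrde-1 stood against 1865, 1920 and 1711 in WT, a difference of 0.16 ± 0.13 that was not called (limma adjusted p = 0.286) but was called at 0.87 with edgeR and 1.10 with DESeq2. WBTransposon00000113 was lower in hrde-1 late, at 1551 and 1538, than in WT late, at 2157, 2351 and 2159 (log2 -0.52 ± 0.17, limma adjusted p = 0.0155), but this turned to 0.18 with edgeR and 0.41 with DESeq2 and was not called without either hrde-1 late replicate. WBTransposon00000094 was higher, at 2382 and 2127 in hrde-1 late against 961, 1036 and 917 in WT late (log2 1.21 ± 0.15, limma adjusted p = 6.51e-06).

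The 178 features did not vary independently. Features were joined into blocks when their log2 values over the 16 libraries correlated at 0.98 or more with another member, which is a description made from the values themselves and carries no test. This gave 44 distinct profiles, of which 11 were blocks of 3 or more features holding 144 features, 1 was a pair and 32 were single features. The 3 largest blocks held 53, 27 and 21 features. Members of a block also had neighbouring identifier numbers. The block of 53 features covered 62 of the 64 transposon identifiers numbered 135 to 199, the block of 27 covered 29 of the 32 numbered 13 to 44, and the block of 21 covered 21 of the 22 numbered 52 to 73. How reads that match several copies were assigned is not given in the sources used here, so members of a block may be counts of the same reads. A count of features is therefore followed below by the number of distinct profiles behind it.

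The comparison of hrde-1 late with WT late asked which small RNAs depend on the nuclear Argonaute after several generations at 25 °C. Of 178 transposon features 78 were higher and 59 lower, from 11 and 18 of the 44 profiles. That is 43.8% higher and 33.1% lower, beside 17.8% higher and 53.5% lower over all 2297 features. The median log2 change was -0.02 for transposon features and -1.26 for gene features, a difference of 1.23. Over the 44 profiles, with each block counted once, the difference was 0.81. The signed change lay above that of the median gene in 154 of the 178 features and in 31 of the 44 profiles. The authors' size factors placed the median of all features at -1.12. With other scalings the higher and lower counts were 112 and 20 (edgeR with TMM), 135 and 10 (DESeq2), 136 and 8 (quantile normalization) and 78 and 60 (equal totals), while the difference between the transposon and gene medians over features stayed between 0.94 and 1.29.

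**Figure D2:**
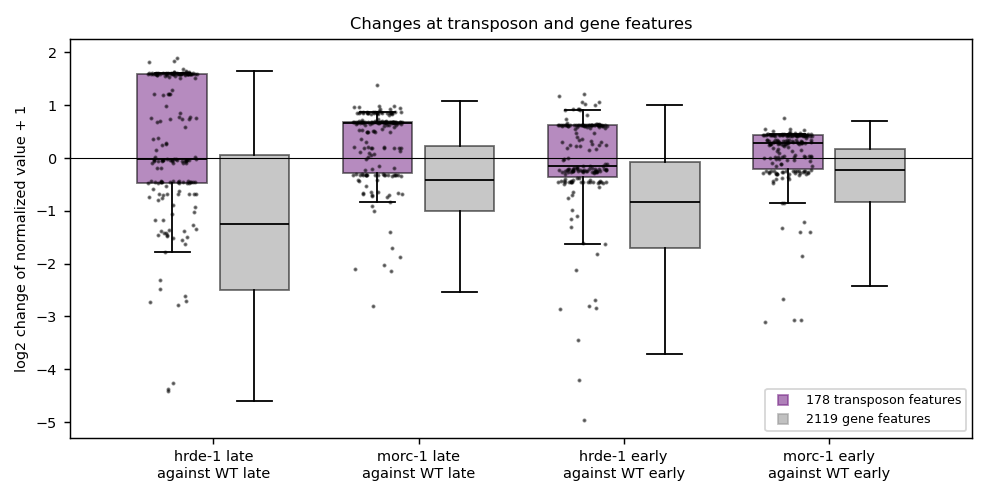
Boxes give the median and quartiles of the log2 change of each mutant against WT of the same stage for 178 transposon features (purple, each also drawn as a dot) and 2119 gene features (grey), with whiskers at the 5th and 95th percentiles. Transposon medians lie above gene medians in all 4 comparisons, and the dense bands of dots are blocks of features with near-identical values.

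The higher side of hrde-1 late was mostly 1 block. All 53 features of the largest block were called higher, with log2 changes between 1.52 and 1.68. The median member had 208 and 201 normalized counts in hrde-1 late against 52.9, 83.5 and 66.6 in WT late. Set against the median gene of the same library, that member stood at 3.92 and 4.00 times it in hrde-1 late and at 0.364 to 0.551 times it in WT late. The 53 were called higher under every scaling tried and without any single library.

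Higher as well were both blocks of 5. The block led by WBTransposon00000097, which includes WBTransposon00000098 and WBTransposon00000100, had a median member at 1672 and 1442 normalized counts in hrde-1 late against 489.7, 604 and 491 in WT late, and a median log2 change of 1.60. WBTransposon00000100 itself had 2105 and 1927 against 516, 651 and 524 (log2 1.84 ± 0.16, limma adjusted p = 3.86e-07). The block of WBTransposon00000092 to WBTransposon00000096 had 2362 and 2113 against 953, 1035 and 914 (median log2 1.21). The largest single rise was that of WBTransposon00000179, with 446 and 402 normalized counts in hrde-1 late against 79.4, 151 and 119 in WT late (log2 1.90 ± 0.27, limma adjusted p = 2.85e-05). WBTransposon00000179 lies in number within the largest block but did not join it at a correlation of 0.98.

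A second set of transposon features lost nearly all its small RNA without hrde-1. WBTransposon00000215 had 0.841 and 1.77 normalized counts in hrde-1 late, which is 1 and 2 reads, against 50.7, 53.1 and 38.8 in WT late (log2 -4.41 ± 0.38, limma adjusted p = 2.80e-07). From the summed reads, 3 in hrde-1 late against 202 in WT late, the ratio was 0.0276 (95% exact interval 0.00564 to 0.0817, counting error only). WBTransposon00000010 had 4.20 and 3.53 against 90.4, 149 and 72.3 (log2 -4.37 ± 0.50, limma adjusted p = 4.24e-06). Both groups of libraries were far apart in each case, and both calls held under every scaling and without any single library.

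Chosen after their values were seen, WBTransposon00000012, WBTransposon00000214 and WBTransposon00000583 were further single features that were low in hrde-1 late. WBTransposon00000012 had 45.4 and 45.9 normalized counts in hrde-1 late against 261, 369 and 242 in WT late. WBTransposon00000214 had 166 and 132 against 845, 875 and 547. For WBTransposon00000583 the values were 22.7 and 17.7 against 100.4, 154 and 102. Their log2 changes were -2.62, -2.31 and -2.48, and the libraries of the strains did not overlap.

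Other blocks were called lower on the authors' scale and with equal totals, but not under every other scaling. The block of 8 features led by WBTransposon00000074 had a median member at 21.9 and 19.4 normalized counts in hrde-1 late against 45.2, 77.5 and 58.7 in WT late (median log2 -1.44, 8 of 8 called), and the block of 4 led by WBTransposon00000422 had 31.1 and 25.6 against 59.6, 86.5 and 64.8 (median log2 -1.27, 4 of 4 called). Relative to the median gene both lay where WT late lay, 0.386 to 0.413 against 0.311 to 0.512 times it for the block of 8. With edgeR 4 of 8 and 3 of 4 were called lower, and with DESeq2 or quantile normalization none. The block of 21 turned with the scaling, from 21 called lower (median log2 -0.46) to 20 called higher with DESeq2 (0.47) and 21 with quantile normalization (0.55). For the 27 features of the second largest block, none called (median log2 -0.05), all 27 were higher with edgeR, DESeq2 and quantile normalization.

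**Figure D3:**
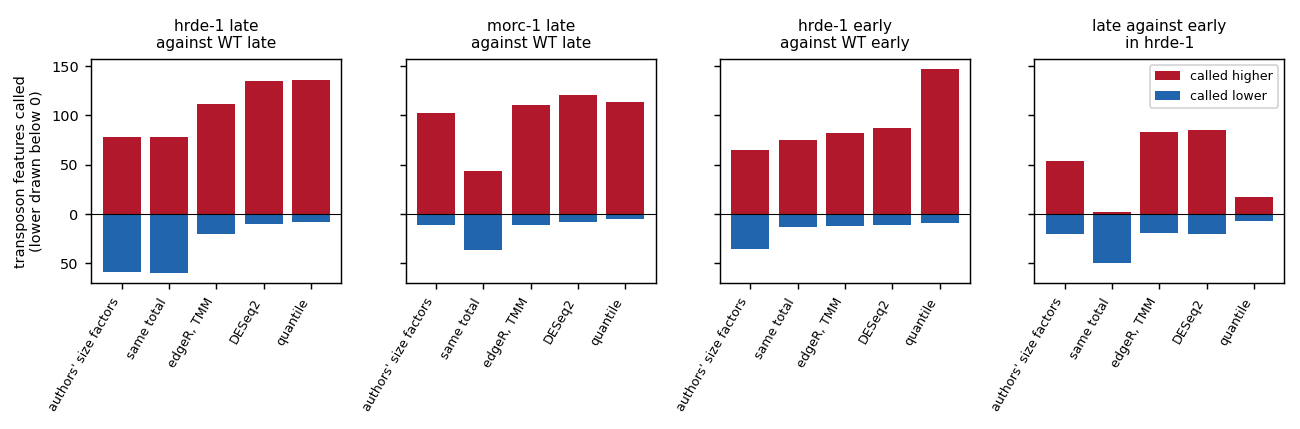
Bars count the transposon features called higher (red, above 0) and lower (blue, drawn below 0) under 5 scalings of the same libraries, for 4 comparisons. The number called lower in hrde-1 late runs from 59 and 60 with the authors' size factors and equal totals to 20, 10 and 8 with edgeR, DESeq2 and quantile normalization.

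At generation 1 the same comparison, hrde-1 early with WT early, gave 65 features higher and 35 lower, from 6 and 14 profiles. These are 36.5% and 19.7% of the transposon features, beside 12.1% and 42.2% of all features. The median log2 change was -0.15 for transposon and -0.83 for gene features, a difference of 0.68 over features and of 0.62 over profiles. The signed change lay above the gene median in 163 of 178 features and 32 of 44 profiles. The split was 82 and 12 with edgeR, 87 and 11 with DESeq2, 147 and 9 with quantile normalization and 75 and 13 with equal totals. The count rested on single libraries: it was 25 when WT early 1 was left out, 28 when WT early 2 was, 23 without hrde-1 early replicate 1 and 19 without hrde-1 early replicate 2.

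The block of 53 was higher in this comparison too, with a median member at 130.5 and 120.4 normalized counts in hrde-1 early against 79.0, 73.6 and 91.7 in WT early. Its median log2 change was 0.62, and 52 of the 53 were called. None of the 53 was called without WT early replicate 1 or 2 or either hrde-1 early replicate (median log2 from 0.55 to 0.68). WBTransposon00000100 had 1670 and 1490 against 696, 637 and 719 (log2 1.21 ± 0.16, limma adjusted p = 3.73e-05), and WBTransposon00000098, of the same block, had 1640 and 1459 against 692, 639 and 713 (log2 1.18 ± 0.16, limma adjusted p = 4.30e-05). Both blocks of 5 were called higher in full, and stayed so without any single library.

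Some of the features low in hrde-1 late were also low early, while the blocks of 8 and of 4 had 0 members called in hrde-1 early, also when any single library was left out. WBTransposon00000592 had 10.58 and 10.99 normalized counts in hrde-1 early against 376, 404 and 317 in WT early, the largest fall of any transposon feature (log2 -4.95 ± 0.27, limma adjusted p = 7.11e-09). WBTransposon00000215 had 1.76 and 2.75 against 56.4, 55.2 and 62.5 (log2 -4.20 ± 0.38, limma adjusted p = 7.18e-07). WBTransposon00000010 had 8.82 and 6.60 against 94.04, 125 and 69.1. In these 3 features no hrde-1 library came near a WT library at either stage.

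**Figure D4:**
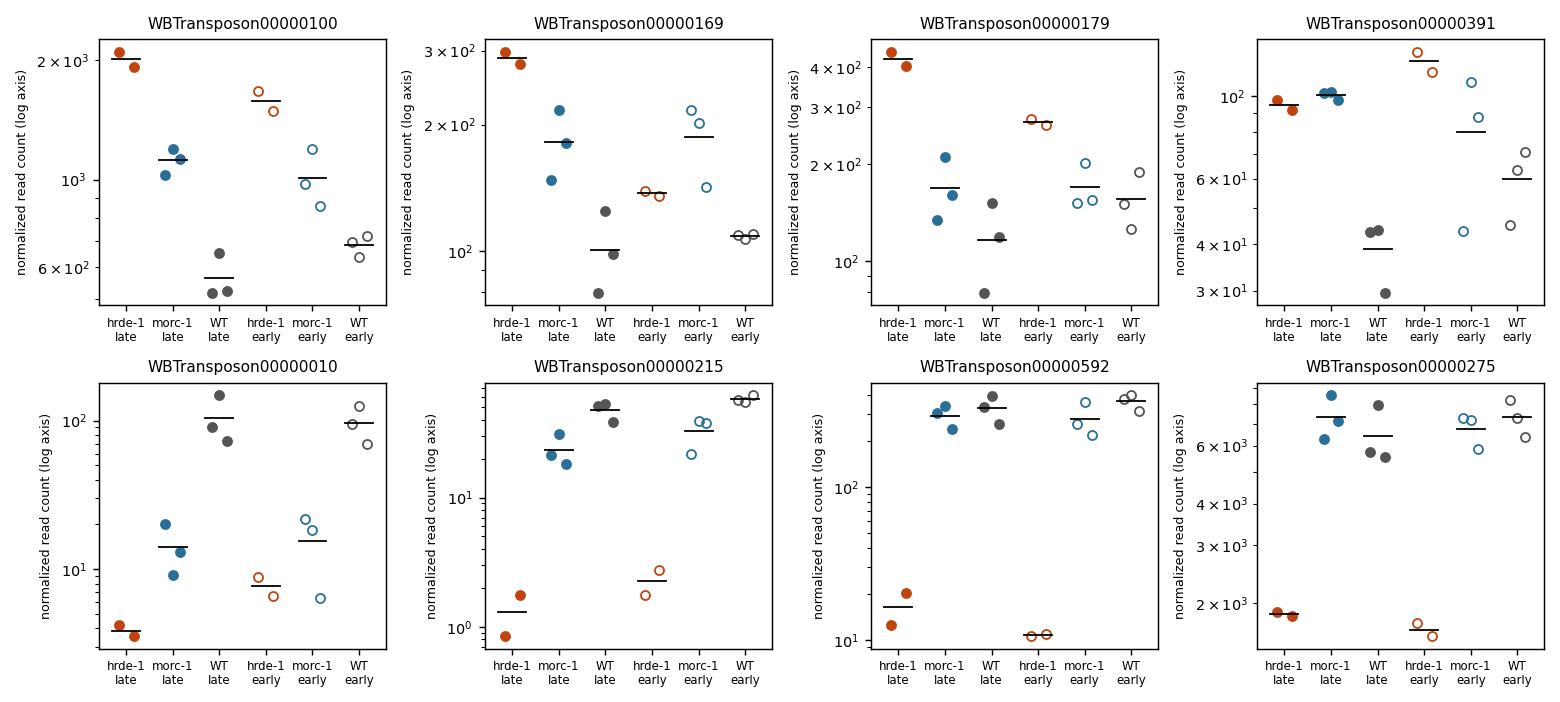
Normalized read counts (log axis) of 8 named features, 1 point for each library, filled late and open early, with lines at group means. The upper row shows features named as higher in at least 1 mutant comparison. For WBTransposon00000179 that is hrde-1 late only, and its morc-1 late values overlap WT late. The lower row shows WBTransposon00000010, which is low in both mutants, and WBTransposon00000215, WBTransposon00000592 and WBTransposon00000275, whose lowest values are those of hrde-1.

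The comparison of morc-1 late with WT late gave 103 transposon features higher and 11 lower, from 12 and 9 profiles. These shares, 57.9% and 6.18%, stood beside 19% higher and 25.6% lower over all features. The median log2 change was 0.66 for transposon and -0.42 for gene features, with the median of all features at -0.34, so transposon and gene medians differed by 1.08 over features and by 0.49 over profiles. Above the gene median in signed change were 156 of 178 features and 32 of 44 profiles. Splits under other scalings were 111 and 11 (edgeR), 121 and 8 (DESeq2), 114 and 5 (quantile normalization) and 44 and 36 (equal totals). Without WT late replicate 1 the count fell to 54, and without 1 of the 2 morc-1 late libraries that share a header to 49.

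The block of 27 rose in morc-1 late as a whole. Its median member had 469, 617 and 479.8 normalized counts in morc-1 late against 254, 349 and 263 in WT late, and 27 of 27 features were called (log2 changes from 0.82 to 0.96). These 27 remained called higher under every scaling tried and without any single library. Relative to the median gene the same member stood at 4.70 to 6.81 times it in morc-1 late and at 1.74 to 2.30 times it in WT late. In hrde-1 late it stood at 5.35 and 5.30 times the median gene, within the morc-1 late range, so on this measure the rise was not particular to morc-1.

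Features of the largest block were also higher, by a smaller amount. The median member had 89.4, 130 and 105 normalized counts in morc-1 late against 52.9, 83.5 and 66.6 in WT late, and all 53 were called (median log2 0.67). The lowest morc-1 late library lay little above the highest WT late library. None of the 53 was called without WT late replicate 1, without morc-1 late library a, when only the groups compared were fitted, or with equal totals (median log2 0.49). Both blocks of 5 were called in full under every scaling, at median log2 changes of 0.98 and 0.51. WBTransposon00000100 had 1029, 1197 and 1125 against 516, 651 and 524 (log2 0.99 ± 0.15, limma adjusted p = 0.000156), and WBTransposon00000391 had 102, 103 and 97.6 against 43.0, 43.5 and 29.5 (log2 1.38 ± 0.29, limma adjusted p = 0.00206).

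The deepest losses in morc-1 late were in WBTransposon00000010 and in a block of 3 features. WBTransposon00000010 had 20.2, 9.12 and 13.0 normalized counts in morc-1 late against 90.4, 149 and 72.3 in WT late (log2 -2.79 ± 0.45, limma adjusted p = 0.000295). WBTransposon00000049, of the block of 3 that also holds WBTransposon00000048 and WBTransposon00000050, had 4.57, 3.42 and 5.10 against 18.8, 28.0 and 21.4 (log2 -2.14 ± 0.73, limma adjusted p = 0.0293), and this call was lost with a pseudocount of 0.5 (-2.25), with a replicate block (-1.57) and without any 1 of these 6 libraries (log2 from -2.26 to -1.98). It was kept at -0.96 with quantile normalization and at -1.18 with a pseudocount of 10. WBTransposon00000215 had 21.5, 30.8 and 18.1 normalized counts in morc-1 late against 50.7, 53.1 and 38.8 in WT late (log2 -1.01 ± 0.34, limma adjusted p = 0.0266), a call lost with quantile normalization (-0.37) and without WT late replicate 1 or 2, morc-1 late replicate 1 or morc-1 late library b. It was lower in hrde-1 late than in morc-1 late by the test between them (log2 -3.41 ± 0.38, limma adjusted p = 6.61e-06). WBTransposon00000592 had 305, 339 and 240.5, which overlapped WT late at 334, 398 and 259.9.

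In morc-1 early against WT early few features were called, 6 higher and 6 lower, from 2 and 4 profiles. At 3.37% each way, these lie below the 4.4% higher and 11.5% lower of all features. The direction of the medians was that of the late comparison, 0.29 for transposon and -0.22 for gene features, which differ by 0.51 over features and by 0.19 over profiles. Above the gene median in signed change were 133 of 178 features and 27 of 44 profiles. Other scalings gave 10 and 6 (edgeR), 39 and 6 (DESeq2), 104 and 6 (quantile normalization) and 6 and 7 (equal totals). Without morc-1 early replicate 1, the shallowest library, 1 was higher and 6 lower, without morc-1 early replicate 2 or WT early replicate 2 there were 0 higher and 6 lower, and without WT early replicate 1 there were 0 higher and 5 lower.

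WBTransposon00000169 had 217, 202 and 142 normalized counts in morc-1 early against 109, 107 and 110.1 in WT early (log2 0.75 ± 0.21, limma adjusted p = 0.0234), a call lost when either of WT early 1 and 2 or of morc-1 early 1 and 2 was left out. WBTransposon00000100 had 975, 1194 and 856 against 696, 637 and 719 (log2 0.55 ± 0.15, limma adjusted p = 0.0209), lost when WT early 1, WT early 2 or morc-1 early 2 was left out. WBTransposon00000050, which stands for 2 identifiers, had 0, 10.5 and 5.36 against 30.1, 39.1 and 35.7 (log2 -3.10 ± 0.73, limma adjusted p = 0.0105). Near-identical values were found for WBTransposon00000049 (log2 -3.08 ± 0.73, limma adjusted p = 0.0109). The 0 comes from the library in which 1 read is worth 21.7 normalized counts. Without that library the changes were -2.07 and -2.04, without morc-1 early replicate 2 they were -3.83 and -3.80, and both features were still called. With quantile normalization they were -1.71 and -1.68 and with a pseudocount of 10 they were -1.61 and -1.59, also called, and when only the groups compared were fitted neither was called.

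**Figure D5:**
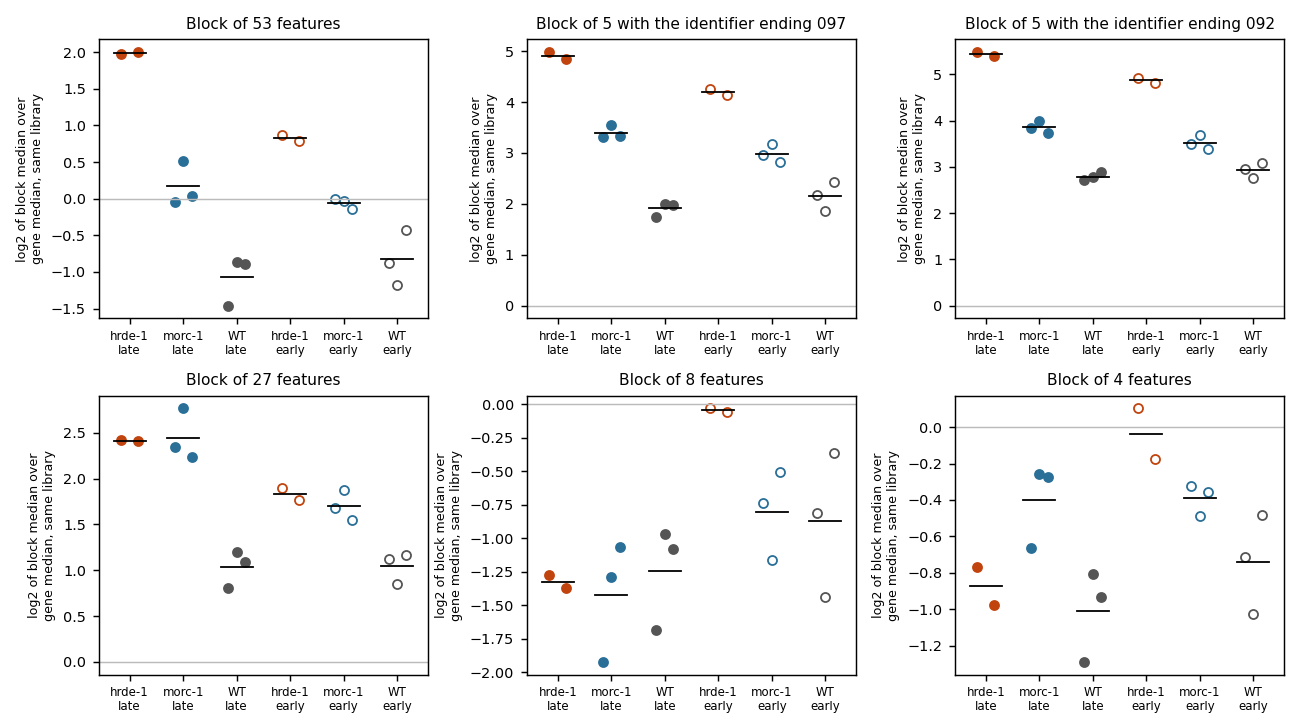
Each point is the median member of a block over the median gene feature of the same library (log2), filled late and open early, with lines at group means. The block of 53 stands highest in hrde-1 late (3.92 and 4.00 times the median gene). The block of 27 is at 4.70 to 6.81 times it in morc-1 late and 5.35 and 5.30 times it in hrde-1 late, against 1.74 to 2.30 times it in WT late. The blocks of 8 and 4 are lower in hrde-1 late than in hrde-1 early. The block of 8 also has lower late means in morc-1 and WT, with overlapping libraries.

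Change over the generations at 25 °C was tested within each strain. In WT, late against early, limma called 0 transposon features, and 3 had an unadjusted p under 0.05, while edgeR and DESeq2 also called 0. Over all features 0.0871% were higher and 0.435% lower. In morc-1 limma again called 0, with 52 at an unadjusted p under 0.05, but edgeR called 29 higher and 0 lower and DESeq2 30 higher and 0 lower. The background there was 1.83% higher and 8.71% lower. Without morc-1 early replicate 2, limma called 30 higher and 2 lower.

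In hrde-1, late against early, 54 transposon features were higher and 20 lower, from 3 and 10 profiles, beside 11.6% higher and 19.5% lower of all features. Of the 54, 52 belonged to the block of 53, whose median member had 208 and 201 normalized counts late against 130.5 and 120.4 early (median log2 0.70). WBTransposon00000207 had 323 and 366 normalized counts late against 152 and 127 early (log2 1.30 ± 0.29, limma adjusted p = 0.00474; not called without hrde-1 early replicate 2). All 8 features of the block of 8 were lower, with a median member at 21.9 and 19.4 late against 69.6 and 67.1 early (median log2 -1.67), and so were all 4 of the block of 4, at 31.1 and 25.6 against 76.4 and 61.8 (median log2 -1.23). In morc-1 the block of 8 was also lower late, its median member at 24.5, 37.0 and 48.8 against 65.0, 55.1 and 78.2. There limma called 0 transposon features. Relative to the median gene, the mean of that member went from 0.970 to 0.399 times it in hrde-1. It went from 0.584 to 0.384 in morc-1 and from 0.572 to 0.432 in WT, with overlapping libraries in both. WBTransposon00000086 fell to 91.6 and 83.8 normalized counts late, against 367 and 279 early (log2 -1.86 ± 0.62, limma adjusted p = 0.0392), a call lost without any 1 of these 4 libraries or WT early replicate 1.

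These late against early counts depended on scaling. With equal totals 2 were higher and 50 lower, with edgeR 83 and 19, with DESeq2 85 and 20 and with quantile normalization 17 and 7. The block of 53 kept a positive median under each of these (0.37 to 1.03) and the blocks of 8 and 4 negative ones (-1.999 to -0.64). The total fell to 16 without either hrde-1 early replicate, to 19 without hrde-1 late replicate 1, to 16 without hrde-1 late replicate 2 and to 28 without WT early replicate 1.

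Whether the mutant effect differed between stages was tested as an interaction of generation and strain. For morc-1 limma called 0 features, with 27 at an unadjusted p under 0.05 and 0 called by edgeR and by DESeq2, beside 0.653% and 1.18% of all features. For hrde-1 54 were higher and 7 lower, from 3 and 6 profiles, beside 9.49% and 9.93% of all features, and 52 of the 54 were again the block of 53. With equal totals 1 was higher and 26 lower. The count fell to between 0 and 12 without WT early replicate 1 or 3, WT late replicate 1 or 3, morc-1 late library b of the 2 that share a header, or any hrde-1 library.

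The mutants were compared with each other directly. In hrde-1 late against morc-1 late 68 features were higher and 56 lower, from 8 and 17 profiles, beside 15.1% higher and 40.1% lower of all features. The block of 53 was higher in hrde-1 late, at 208 and 201 normalized counts for its median member against 89.4, 130 and 105 in morc-1 late (53 of 53 called, median log2 0.92), and this held under every scaling. The block of 27 was lower, at 283 and 267 against 469, 617 and 479.8 (27 of 27 called, median log2 -0.91), but with edgeR, DESeq2 or quantile normalization none of the 27 was called. WBTransposon00000179 had 446 and 402 in hrde-1 late against 134, 209.8 and 159.9 in morc-1 late (log2 1.35 ± 0.27, limma adjusted p = 0.00108). WBTransposon00000592 had 12.6 and 20.3 against 305, 339 and 240.5 (log2 -4.10 ± 0.27, limma adjusted p = 2.63e-08). Other scalings gave 104 higher and 14 lower (edgeR), 104 and 11 (DESeq2), 82 and 6 (quantile normalization) and 69 and 53 (equal totals).

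Early, hrde-1 against morc-1 gave 12 features higher and 34 lower, from 4 and 10 profiles, beside 5.44% and 29.9% of all features. This split turned with the scaling, to 69 and 6 with edgeR, 66 and 6 with DESeq2, 100 and 6 with quantile normalization and 16 and 6 with equal totals. The 10 features of both blocks of 5 were among those called higher. WBTransposon00000209 had 344 and 339.7 normalized counts in hrde-1 early against 108, 219 and 125 in morc-1 early (log2 1.24 ± 0.41, limma adjusted p = 0.0305), a call that was lost without morc-1 early replicate 1 or 3 or either hrde-1 early replicate. WBTransposon00000592 had 10.58 and 10.99 against 259.9, 362 and 221 (log2 -4.55 ± 0.27, limma adjusted p = 1.19e-08). Leaving out 1 library took the total of 46 to between 12 and 29 for WT early replicates 1 and 2, morc-1 early replicates 1 and 2 and each hrde-1 library.

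Gene features that share the small RNA pattern of a transposon were counted. Of 2119 gene features 123 lay within 0.25 on the log2 scale of a transposon feature in every library, which is 5.8%. Of the 173 tested features listed under a sequence name without a gene identifier, 81 did so (46.8%). They followed 58 transposon features. Of the 123, 10 were tested in the mRNA table, and their median mRNA log2 change was 0.05 in hrde-1 late (0.09 over all genes tested) and 0.15 in morc-1 late (0.25 over all genes tested).

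The mRNA of silencing factors was examined in the 12 mRNA libraries (2 per group). The list held 54 genes, of which 50 were tested, among them Argonautes, nuclear RNAi factors, Mutator proteins, RNA-dependent RNA polymerases and histone methylation factors. With limma 0 of 50 were called in any mutant comparison. At an unadjusted p under 0.05 there were 5 in hrde-1 late, 14 in morc-1 late, 1 in hrde-1 early and 4 in morc-1 early, of 50 each. Over all 7324 genes the share at that unadjusted threshold was 12.4% in hrde-1 late, 13.0% in morc-1 late, 2.29% in hrde-1 early and 3.02% in morc-1 early. At the adjusted threshold the background of called genes was 3.25% in hrde-1 late, 0.355% in morc-1 late, 0.601% in hrde-1 early and 0.109% in morc-1 early, of 7324 genes. The median log2 change of the list was 0.28 in hrde-1 late (0.09 over all genes) and 0.64 in morc-1 late (0.25 over all genes). The 2 WT late libraries differed for some factors, such as met-1 (15.4 and 4.68 FPKM) and dcr-1 (21.1 and 11.3 FPKM). For others they were close, such as arle-14 (32.5 and 33.2 FPKM) and rde-4 (80.4 and 85.1 FPKM). How far the late medians rest on 1 library is not given here.

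As a check of the strains, the mRNA of the mutated genes was read in each library. The morc-1 gene had 11.999 and 9.77 FPKM in morc-1 late against 36.2 and 24.3 FPKM in WT late, and 14.1 and 13.7 FPKM in morc-1 early against 54.2 and 54.9 FPKM in WT early. Neither difference was called (limma adjusted p = 0.143 late and 0.0780 early). The hrde-1 gene had 81.1 and 68.5 FPKM in hrde-1 late against 102 and 97.2 FPKM in WT late (limma adjusted p = 0.530), and 151 and 134 FPKM in hrde-1 early against 234 and 198 FPKM in WT early (limma adjusted p = 1). The labels name the alleles without the sequence they remove, so the hrde-1 transcript level does not check its label.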

How the data were processed

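The work started from the authors' deposited small RNA and mRNA tables. Small RNA values are a normalized signal, which the authors deposited after dividing each library's reads by its own size factor, and DESeq2 (version not stated) is named per the submitters' processing notes. For mRNA the notes name Trimmomatic 0.35 and TopHat2 (version not stated). The deposited mRNA values, named as normalized counts, were read as FPKM because they are not whole and their lowest values are highest among the shortest genes, so their unit is uncertain. The notes of the series also name Bowtie 0.12.7, which is not tied here to the small RNA reads. Genome build, annotation and the handling of reads with several matches were not given in the sources used here. Chromatin data were not used here.

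Whole small RNA reads were recovered in every library within 0.02 reads. Identical rows were joined. limma 3.58.1 in R 4.3.3 was fitted to log2(value + 1) over all 16 libraries with 11 contrasts (12 libraries and 4 contrasts for mRNA), for features with a mean of at least 10. edgeR 4.0.16 and DESeq2 1.42.0 were run on recovered read counts as alternatives. A fold change on the log2(value + 1) scale understates changes of low features. The methods were tested on simulated data. Fits carry no replicate block. Same-numbered WT early and morc-1 early libraries deviated together (r = 0.24, 0.46 and 0.36). The labels state no pairing, but library numbers run in replicate order across WT and morc-1. They are 33 to 36 for replicate 1, and for the identified libraries 37 to 39 for replicate 2 and 41 to 43 for replicate 3. Whether same-numbered libraries were prepared as sets is not stated, and the main fits ignore such sets. Headers of 2 morc-1 late columns are the same, so their replicate numbers are unknown and they are called a and b. The members, gene lists and rules were chosen with earlier results of these data known. Named were the 5 features of highest mean, up to 2 called features each way per mutant comparison and 1 each way for the other comparisons, ranked by size among those whose libraries did not overlap.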

Additional observations from a re-analysis of the deposited data

Results flagged for a closer look

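The effect of hrde-1 on transposon features differed between the late and the early generation for 61 features. They were called by limma's test of the interaction itself (adjusted p under 0.05 over all features). Of these, 54 were higher and 7 lower, from 3 and 6 of the 44 profiles, beside 9.49% and 9.93% of all features. Most of those higher were members of the largest block. With equal totals 27 were called and the direction turned, to 1 higher and 26 lower. The split was 3 and 3 with quantile normalization, 67 and 4 with edgeR and 68 and 1 with DESeq2. For WBTransposon00000207 the interaction was 1.23 ± 0.37 on the log2 scale (limma adjusted p = 0.0417): it had 323 and 366 normalized counts in hrde-1 late against 259, 383 and 242 in WT late, but 152 and 127 in hrde-1 early against 286, 301 and 242 in WT early. For WBTransposon00000077 it was -1.41 ± 0.38 (limma adjusted p = 0.0271), with 37.8 and 33.5 in hrde-1 late against 103, 125 and 109 in WT late, and 112 and 115 in hrde-1 early against 128, 109 and 166 in WT early. The call of WBTransposon00000207 was lost without WT early replicate 1 or 2, WT late replicate 1 or 3 or any 1 hrde-1 library (1.10 to 1.36), and that of WBTransposon00000077 without WT early replicate 1 or any 1 hrde-1 library (-1.49 to -1.32), or with quantile normalization (-0.87) or DESeq2 (-1.10). What lies behind these differences was not tested.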

How the results depend on the processing

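Reversals among the named features, in 49 results over 1514 settings of which 1403 left direction and call as they were, 78 lost a call and 16 gained one, numbered 17. For WBTransposon00000216 the log2 change was -0.40 in hrde-1 late with quantile normalization, 0.12 with edgeR and 0.26 with DESeq2 in hrde-1 early, and 0.076 with DESeq2 in morc-1 late. For WBTransposon00000275 it was -0.29 with quantile normalization and -0.10 with a replicate block in morc-1 late. For WBTransposon00000046 it was 0.38 with edgeR and 0.45 with DESeq2 in hrde-1 late against morc-1 late. For WBTransposon00000113 it was 0.18 with edgeR and 0.41 with DESeq2 in hrde-1 late, 0.013 and 0.084 with the same tools in hrde-1 late against morc-1 late, and in morc-1 late -0.13 with equal totals or gene sums, -0.18 with quantile normalization, -0.11 with a replicate block and from -0.072 (without morc-1 late library b) to 0.17 (without morc-1 late replicate 1) when 1 library was left out. WBTransposon00000012, WBTransposon00000214, WBTransposon00000583 and the further comparisons of the 5 highest features and of WBTransposon00000215 were put through the alternatives after their values were seen. The cause was not tested.

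Counts of called transposon features moved with scaling and with the libraries fitted. In morc-1 early they were 110 with quantile normalization, 45 with DESeq2, 7 with a mean of at least 50, 7 without the shallowest library and 2 when only the groups compared were fitted. In morc-1 late they were 51 when only the groups compared were fitted. In hrde-1 early they were 156 with quantile normalization. For late against early in morc-1 they were 29 with edgeR, 30 with DESeq2, 4 with equal totals, 2 with equal gene sums, and 1 each with quantile normalization, a mean of at least 50 and without the shallowest library, and in hrde-1 24 with quantile normalization. For hrde-1 early against morc-1 early they were 75 with edgeR, 72 with DESeq2, 106 with quantile normalization, 22 with equal totals or gene sums, 26 without the shallowest library and 12 when only the groups compared were fitted. The hrde-1 interaction gave 27 with equal totals or gene sums, 6 with quantile normalization and 5 without WT late replicate 3, the identifiable library of generation 5.

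Leaving out 1 library at a time gave 5 to 12 features in morc-1 early, 49 to 122 in morc-1 late, 19 to 102 in hrde-1 early, 0 to 32 and 16 to 76 for late against early in morc-1 and in hrde-1, 12 to 50 for hrde-1 early against morc-1 early and 0 to 64 for the hrde-1 interaction. The transposon minus gene median ran from 0.87 to 1.19 in morc-1 late and from 0.66 to 0.88 in hrde-1 early. It was 1.02 with a pseudocount of 10 and 0.94 with quantile normalization in hrde-1 late, and 0.16 with quantile normalization for late against early in hrde-1. Without the gene features that follow a transposon, an alternative chosen after seeing the data, no count moved by over 1.5 times.

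Without the 10 highest features of each library the transposon share was 6.52% in hrde-1 late, 5.76% in morc-1 late and 4.36% in WT late. Early it was 7.12% in hrde-1, 5.57% in morc-1 and 4.38% in WT. The morc-1 early and WT early ranges then did not overlap (5.48 to 5.67% and 4.10 to 4.71%), whereas with all features the means were 4.92% and 4.96%. With identical rows kept apart the share was 5.45% in hrde-1 late, 5.12% in morc-1 late and 4.59% in WT late. Early it was 6.23% in hrde-1, 5.02% in morc-1 and 5.03% in WT. Silencing factor mRNAs called were 2 with quantile normalization and 3 with no filter in hrde-1 late, 1 with quantile normalization in morc-1 late and in morc-1 early, and 0 to 1 in morc-1 early when 1 library was left out.

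Over all groups the deviations of same-numbered libraries correlated at -0.46 to 0.56 (median 0.0028 over 23 pairs), with pairs of either sign. In WT early and morc-1 early all 3 same-numbered pairs were positive, and a block among those 6 libraries, added after seeing the data, gave 13 features called in morc-1 early and changed no call of a named feature there. With a replicate block, which also leaves out both morc-1 late libraries of unknown number, 15 features were called in morc-1 late, and the transposon minus gene median was 0.81 in morc-1 late and 0.84 for hrde-1 late against morc-1 late. Depth limits the low features most: in morc-1 early replicate 1 a single read exceeds the mean of the lowest.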
